A study of Mus musculus with 37 samples.

Results

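The urea cycle genes Cps1, Otc, Ass1, Asl, Arg1 and Nags were followed across doses of HFPO-DA, the dimer acid of hexafluoropropylene oxide, in mouse liver. They are the 5 enzymes of the cycle and the enzyme that makes its activator, taken by gene symbol from the probe table, and make up 6 of 21450 gene symbols and 8 of 30146 probes (Ass1 and Asl have a pair of probes each). All 8 probes passed the filter on low counts, which kept 18570 probes. Livers came from 37 wild-type Crl:CD1(ICR) mice, an outbred stock. F0 males, about 6 weeks old at the first dose, were gavaged daily for 70 days before mating and on through mating, 84 to 85 doses in all, and received 0 (deionized water, n = 5), 0.1 (n = 5), 0.5 (n = 5) or 5 mg/kg (n = 4). F0 females, about 11 weeks old, were gavaged from 14 days before mating through gestation and into lactation, 53 to 65 doses, and received 0 (n = 5), 0.1 (n = 5), 0.5 (n = 4) or 5 mg/kg (n = 4). The sexes therefore also differed in age, length of dosing and reproductive state, which cannot be told apart from sex. Each mouse gave 1 library, made from scraped sections of fixed, paraffin-embedded liver and counted probe by probe (TempO-Seq, in which a pair of short oligos is joined on its RNA target).

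The urea cycle turns ammonia, the toxic by-product of amino acid breakdown, into urea, and runs chiefly in the hepatocytes around the portal vein. Nags makes N-acetylglutamate, the activator without which carbamoyl phosphate synthetase 1 (Cps1) does not work. Cps1 joins ammonia and bicarbonate inside the mitochondrion, ornithine transcarbamylase (Otc) makes citrulline there, argininosuccinate synthase (Ass1) adds aspartate in the cytosol, argininosuccinate lyase (Asl) releases arginine, and arginase 1 (Arg1) splits arginine into urea and ornithine, which returns to the mitochondrion.

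The genes lie on 6 chromosomes and share no locus (GRCm38, GENCODE release M21). Cps1 is at chr1:67123026-67231259 on the plus strand, Otc at chrX:10252305-10321024 on the plus strand, Ass1 at chr2:31470207-31520672 on the plus strand, Asl at chr5:130011258-130029247 on the minus strand, Arg1 at chr10:24915221-24927484 on the minus strand and Nags at chr11:102145513-102149477 on the plus strand. Of the members Ass1, Otc and Nags have an entry in the RefSeq promoter table used (GRCm38.p6). All 3 are shown, and among them Ass1 and Otc were called lower in both sexes at the top dose and Nags in neither. Each sequence runs 5′ to 3′ on the plus strand and stops before the first annotated start of the gene (Ass1 chr2:31470020-31470206, Otc chrX:10252055-10252229, Nags chr11:102145263-102145512), and capitals mark a match to one of the motifs searched.
Ass1: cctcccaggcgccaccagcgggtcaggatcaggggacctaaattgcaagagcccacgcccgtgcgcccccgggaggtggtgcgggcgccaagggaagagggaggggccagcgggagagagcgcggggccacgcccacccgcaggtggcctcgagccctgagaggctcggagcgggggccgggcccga
Otc: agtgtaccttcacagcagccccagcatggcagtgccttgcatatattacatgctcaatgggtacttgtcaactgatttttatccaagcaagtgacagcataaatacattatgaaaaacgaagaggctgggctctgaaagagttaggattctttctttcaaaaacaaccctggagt
Nags: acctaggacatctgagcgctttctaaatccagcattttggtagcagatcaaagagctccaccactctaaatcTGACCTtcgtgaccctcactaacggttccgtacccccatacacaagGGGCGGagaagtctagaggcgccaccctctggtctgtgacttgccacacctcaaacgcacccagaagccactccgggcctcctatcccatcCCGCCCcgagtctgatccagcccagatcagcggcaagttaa
The letters searched, on both strands of the 250 bases before the start, were AGGTCA (a nuclear receptor half-site), TTGCNNAA (a C/EBP motif), AGAACA (a glucocorticoid receptor half-site), TATAAA for the TATA box, CCAAT for the box of that name, and GGGCGG for the GC box. The Nags window held AGGTCA at 1 place, which 14% of the 32851 promoters of the table hold, and GGGCGG at 2 places. GGGCGG, held by 32.7% of all promoters, stood at 1 place in the Ass1 window. That place is after the first annotated start of Ass1, in the bases left out of the print. The window runs on to the start given by the promoter table. The C/EBP (9.56% of promoters), glucocorticoid (16.1%), TATA (12.4%) and CCAAT (33.8%) motifs were in none of the 3 windows, and the Otc window held no match at all. The Ass1 stretch was the richest in G and C (75.4%), against 55.6% for Nags and 41.7% for Otc.

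Library depth ran from 2101495 to 10548222 counts in the 19 males and from 7952605 to 13878254 in the 18 females. The 4 males under 5000000 counts were mouse 4 at 0.1 mg/kg, mouse 2 at 0.5 mg/kg, and mice 1 and 3 at 5 mg/kg. The Y-linked gene Ddx3y gave 31 to 623 counts in the males and 0 to 2 in the females. The 8 probes together took 0.581 to 1.35% of a male library and 0.766 to 1.56% of a female one. Levels below are CPM, the counts per 1000000 library counts after TMM scaling. Probes differ in how well they capture their target, so levels are compared between groups of mice and not between genes. "Called" means an adjusted p (Benjamini-Hochberg over all 18570 probes) under 0.10 in edgeR's quasi-likelihood test, and values after ± are SDs unless marked SE.

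In males, 7 of the 8 probes, for Cps1, Otc, Ass1, Asl and Arg1, fell at 5 mg/kg, and the eighth, Nags, had an adjusted p of 0.105. Of all probes tested, 8.49% were called lower in that comparison. The median log2 fold change was -1.58 over the 8 probes and -0.12 over all probes. In 6 of the 8, all but Arg1 and Nags, every treated male lay below every control, against 4.8% of all probes. In females, 5 of the 8 probes, for Otc, Ass1 and Asl, fell at 5 mg/kg, against 2.26% of all probes called lower. The female median was -0.81 over the 8 probes and -0.01 over all probes, and in 5 of 8 (4.31% of all probes) the groups did not overlap. Scaling to total counts alone moved the all-probe median in males from -0.12 to 0.08 and the split of their calls from 1577 lower and 782 higher to 1100 and 1339, and still called 7 of the 8 urea cycle probes in males and 5 in females.

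**Figure D1:**
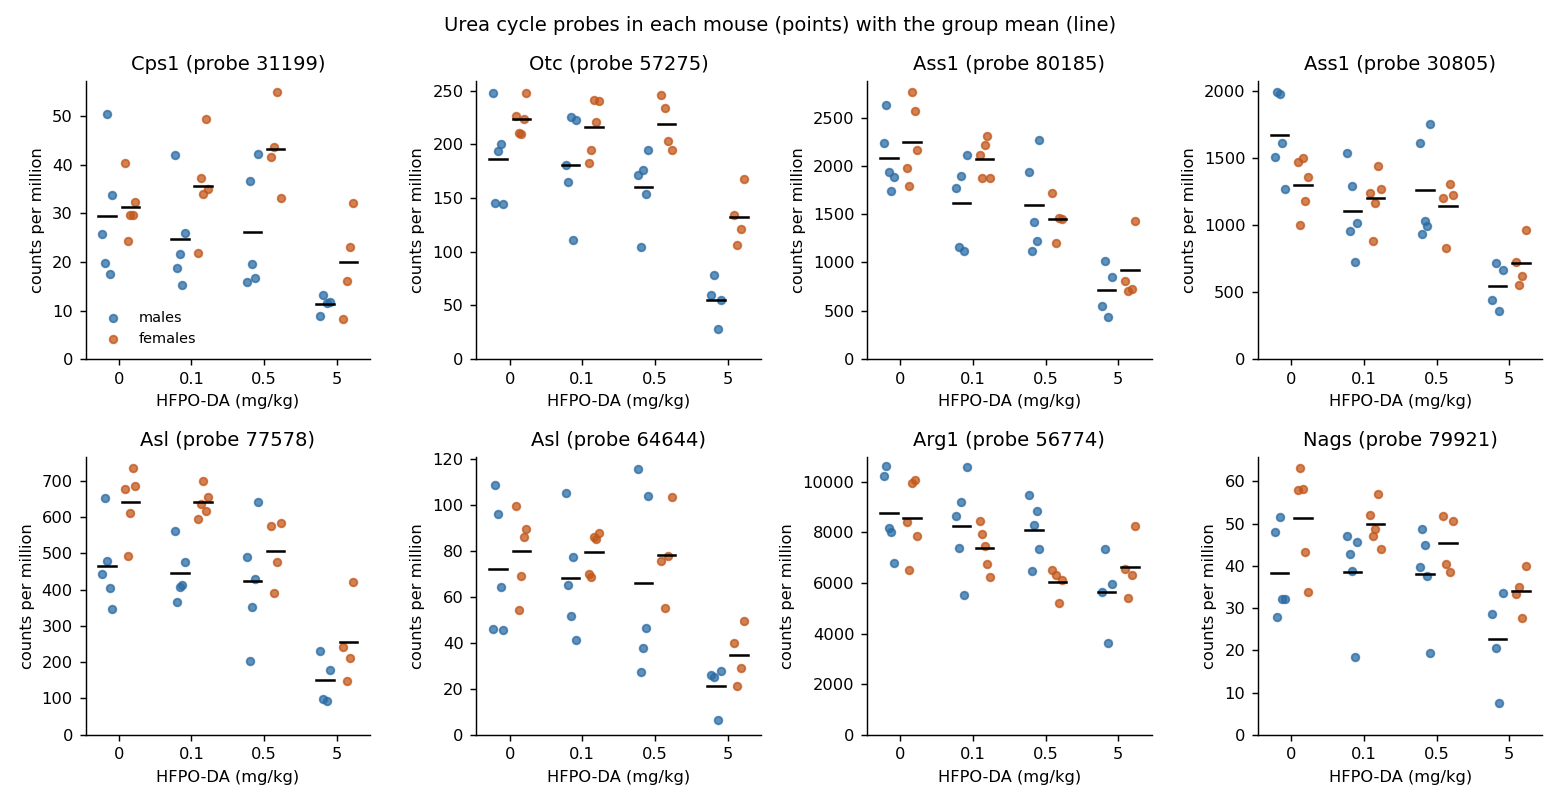
Level of each urea cycle probe (vertical axis, CPM, each panel on its own scale) by dose of HFPO-DA in mg/kg (horizontal axis). Each point is 1 mouse, males in blue and females in orange, and black lines are group means. The 5 mg/kg males have the lowest mean in all 8 panels.

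Nags, which makes the activator, was called in neither sex, and Cps1, the first enzyme, in males alone. The Nags level was 27.9, 32.1, 32.2, 47.9 and 51.5 CPM in control males and 7.50, 20.6, 28.5 and 33.7 CPM in males at 5 mg/kg. The ranges overlapped, and 2 of 4 treated males were below every control. The log2 difference was -0.75 (SE 0.29, adjusted p = 0.105, edgeR). Leaving out control male 2 or 4 or treated male 1 or 4 brought the adjusted p to between 0.0362 and 0.0898, under the threshold. With other single mice left out it was as high as 0.317. The log2 difference ran from -1.03 to -0.48 over all these omissions. The lowest treated value, 7.50 CPM, rests on 20 counts in male 3, the shallowest library. In females Nags was 33.7, 43.3, 57.9, 58.2 and 63.1 CPM in controls and 27.7, 33.3, 35 and 39.9 CPM at 5 mg/kg, again with overlap. The female difference was -0.59 (SE 0.28, adjusted p = 0.379), and it was called (-0.60, adjusted p = 0.0398) when each sex was fitted apart.

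Cps1, the step that commits ammonia to the cycle, was read by 1 probe with few counts, 31 to 119 per mouse in males at 5 mg/kg. Control males were at 17.5, 19.8, 25.8, 33.8 and 50.6 CPM, and males at 5 mg/kg at 8.96, 11.6, 11.7 and 13.1 CPM. No treated male reached the lowest control, and Cps1 fell by 1.37 on the log2 scale (SE 0.35, adjusted p = 0.00877, edgeR), which is 61.3% lower. The female controls were at 24.3, 29.6, 29.7, 32.4 and 40.3 CPM and the females at 5 mg/kg at 8.29, 16.1, 23 and 32.2 CPM. Here 3 of 4 treated females were below every control, and the log2 difference of -0.65 (SE 0.33) had an adjusted p of 0.447. Its female group means were highest at 0.5 mg/kg (43.3 ± 8.94 CPM, n = 4), 0.47 above control on the log2 scale (SE 0.33, unadjusted p = 0.158).

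Otc, the mitochondrial citrulline-forming step, fell in both sexes. Control males were at 145, 146, 194, 200.4 and 248 CPM, and males at 5 mg/kg at 27.8, 54.9, 60.1 and 77.9 CPM. The highest treated male was thus far under the lowest control. Otc fell by 1.75 on the log2 scale (SE 0.22, adjusted p = 2.69e-07, edgeR), or 70.2% lower. Control females lay closer together, at 209, 211, 224, 227 and 248 CPM, and females at 5 mg/kg were at 106, 121, 134 and 168 CPM. Those groups did not overlap either, and Otc fell by 0.76 (SE 0.21, adjusted p = 0.0324), or 40.9% lower. Without female 2 or female 3 at 5 mg/kg the adjusted p became 0.148 or 0.131.

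Ass1, which brings in the nitrogen of aspartate, fell in both sexes with both probes. By Ass1_80185 control males were at 1736, 1883, 1933, 2233 and 2628 CPM, and males at 5 mg/kg at 439, 551, 846 and 1016 CPM. Every treated male was below every control, and the log2 change was -1.55 (SE 0.24, adjusted p = 8.15e-06, edgeR). Ass1_30805 ranged from 1268 to 1990.4 CPM in control males and from 362 to 718 CPM at 5 mg/kg, a log2 change of -1.61 (SE 0.23, adjusted p = 2.16e-06). In females Ass1_80185 read 1791, 1974, 2163, 2569 and 2762 CPM in controls and 709, 727, 805 and 1430.0 CPM at 5 mg/kg. The top treated female, mouse 4, stood apart from the other three but still below all controls, and the log2 change was -1.29 (SE 0.23, adjusted p = 0.000207). Ass1_30805 ranged from 997 to 1499 CPM in control females and from 549 to 966 CPM at 5 mg/kg, a log2 change of -0.86 (SE 0.22, adjusted p = 0.0155).

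The fall in females read larger by Ass1_80185 than by Ass1_30805. The level by the former over that by the latter averaged, from the control to the top dose, 1.75, 1.76, 1.29 and 1.27 in females. In males it was, in the same order, 1.27, 1.50, 1.26 and 1.29. The log2 ratio was lower by 0.46 in females at 5 mg/kg than in control females (p = 0.0317, two-sided exact permutation test, 4 against 5), and the adjusted p over the 14 ratio comparisons made, 7 for Ass1 and 7 for Asl, was 0.222. Without HFPO-DA the log2 ratio was lower by 0.47 in control males than in control females (p = 0.0317, same permutation test, adjusted p = 0.222). None of the 14 had an adjusted p below 0.222, and these ratios were chosen after the probe values were seen.

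Asl, which frees arginine from argininosuccinate, also fell in both sexes with both probes. By Asl_77578 control males were at 346, 405, 444, 479.8 and 651 CPM, and males at 5 mg/kg at 92.3, 98.5, 178 and 231 CPM. Treated and control males did not overlap, and the log2 change was -1.63 (SE 0.27, adjusted p = 2.71e-05, edgeR). Control females were at 492, 611, 677, 685 and 734 CPM and females at 5 mg/kg at 147, 210.3, 243 and 419.8 CPM. These did not overlap, with a log2 change of -1.33 (SE 0.26, adjusted p = 0.000769). The lower-count probe Asl_64644 ranged from 45.6 to 109 CPM in control males and from 6.38 to 27.7 CPM at 5 mg/kg (log2 change -1.73, SE 0.36, adjusted p = 0.00108). Its 6.38 CPM rests on 17 counts in male 3, the shallowest library. In females it fell by 1.20 (SE 0.35, adjusted p = 0.0451), and the adjusted p rose to 0.104 without control female 1, 0.196 without treated female 2 and 0.170 without treated female 3.

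Arg1, the last step and the one that releases urea, changed least among the probes called in males. Control males were at 6805, 8013, 8169, 10243 and 10644 CPM, and males at 5 mg/kg at 3631, 5637, 5954 and 7364 CPM. The groups overlapped through 1 treated male, and Arg1 fell by 0.64 on the log2 scale (SE 0.18, adjusted p = 0.0213, edgeR), or 35.7% lower. That call was lost without male 3 at 5 mg/kg (adjusted p = 0.126) and without the 4 males under 5000000 counts (adjusted p = 0.219). In females Arg1 was 6497, 7865, 8415, 9976 and 10089 CPM in controls and 5394, 6316, 6537 and 8263 CPM at 5 mg/kg. Of the treated females 2 of 4 lay inside the control range, and the log2 difference was -0.37 (SE 0.18, adjusted p = 0.395).

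**Figure D2:**
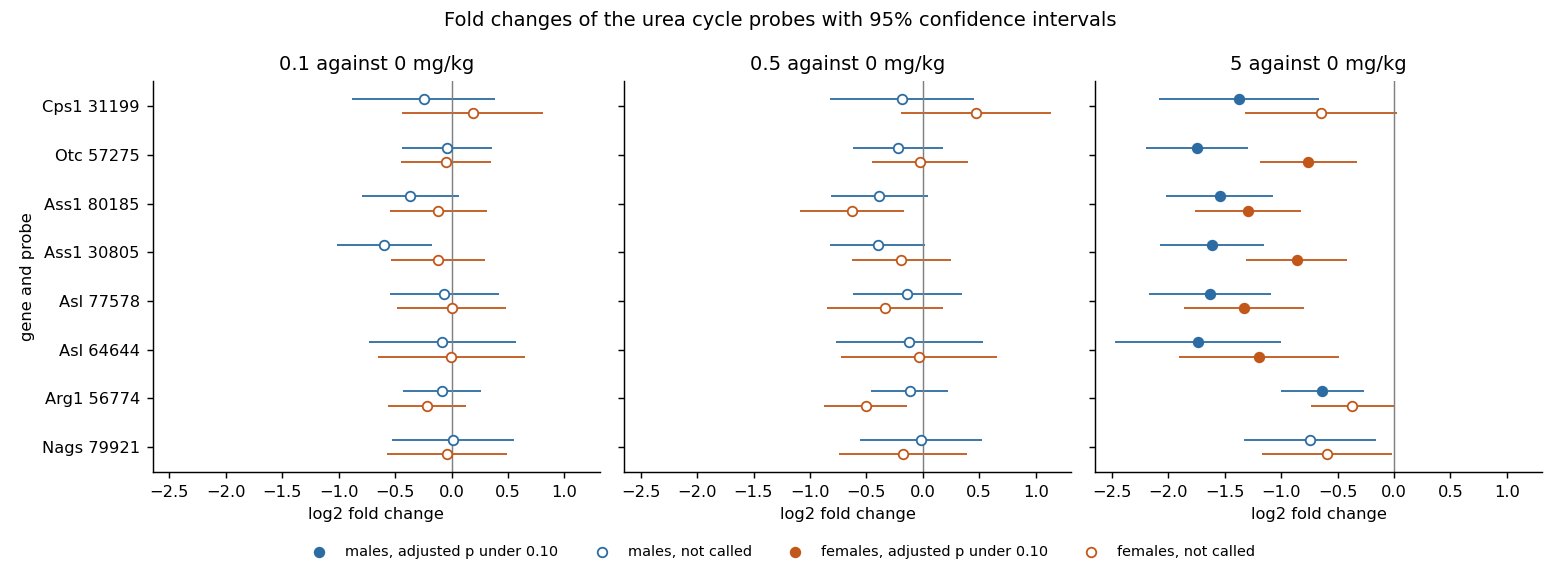
Log2 fold change of each urea cycle probe (horizontal axis) at each dose against the control of the same sex, with 95% confidence intervals from the fit across all probes. Males are blue and females orange, and filled points have an adjusted p under 0.10. Filled points appear at 5 mg/kg only, 7 in males and 5 in females.

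No urea cycle probe was called at 0.1 or 0.5 mg/kg in either sex, by edgeR or by DESeq2. At 0.5 mg/kg, 0.625% of all probes were called in males and 0.113% in females, against 0% of all probes in both at the lowest dose. An unadjusted edgeR p under 0.05 was given at 0.5 mg/kg by 0 of 8 probes in males and 2 of 8 in females. The shares of all probes were 10.3% and 4.33%. The lowest dose gave 1 of 8 in males and 0 of 8 in females, against 7.14% and 2.38% of all probes. The log2 differences at 0.5 mg/kg ranged from -0.40 to -0.01 in males and from -0.63 to 0.47 in females. Those at the lowest dose ranged from -0.60 to 0.01 and from -0.22 to 0.19.

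Ass1 was among the lowest of these values at the lower doses. Ass1_30805 in males at 0.1 mg/kg read 722, 958, 1012, 1293 and 1534 CPM, 3 of 5 below every control, for a difference of -0.60 (SE 0.21, unadjusted p = 0.00633, adjusted p = 0.624). Mouse 4, the lowest of these 5, had 4012015 counts. In females at 0.5 mg/kg, Ass1_80185 read 1197, 1451, 1455 and 1719 CPM, all 4 below the lowest control, for a difference of -0.63 (SE 0.23, unadjusted p = 0.00863, adjusted p = 0.975). Ass1_30805 did not show the same in those females, with a difference of -0.19 (SE 0.22). Arg1 in females at 0.5 mg/kg read 5194, 6113, 6330.2 and 6509 CPM, with 3 of 4 below every control and a difference of -0.51 (SE 0.18, unadjusted p = 0.00828, adjusted p = 0.975), so that its mean was lower at 0.5 (6037 ± 585 CPM) than at 5 mg/kg (6628 ± 1197 CPM).

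Between the upper doses, 7 of 8 probes in males were lower at 5 than at 0.5 mg/kg (5.57% of all probes), with log2 changes among them from -1.61 for Asl_64644 to -0.52 for Arg1. The call of Arg1 was lost without any of 5 males (mouse 1, 3 or 4 at 0.5 mg/kg, 1 or 3 at 5 mg/kg, adjusted p up to 0.282) and that of Cps1 without male 5 at 0.5 mg/kg (0.103). Both were also lost without the mice under 5000000 counts (adjusted p = 0.350 for Arg1 and 0.256 for Cps1) and with each sex fitted apart (0.205 and 0.110), and Arg1 with total counts (0.154). Nags was again the one not called (-0.73, SE 0.29, adjusted p = 0.134). In females 1 of 8 was called (0.84% of all probes), Asl_77578, which fell by 0.99 (SE 0.27, adjusted p = 0.0569, edgeR). An unadjusted p under 0.05 was given by 6 of the 8 (7.86% of all probes). DESeq2 called 6, and over all probes it called 278 of 6987 lower. The edgeR count of 1 moved between 0 and 6 when single females were left out. It was 6 without female 4 at 5 mg/kg, the highest of its group for each of the 8 probes, and 0 without any of the other 3 females at that dose or without female 1 or 4 at 0.5 mg/kg. The 5 mg/kg males had the lowest mean of the 8 groups for every probe, and the 5 mg/kg females the second lowest for every probe but Arg1. Ordered by mean, neighbouring groups overlapped in nearly every case. The exceptions were Otc, where the 5 mg/kg females (132 ± 26.1 CPM) all lay above the 5 mg/kg males (55.2 ± 20.8 CPM), and Asl_77578, where the 0.1 mg/kg females lay above those at 0.5 mg/kg.

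No urea cycle probe was called by edgeR for a difference between the sexes. Few of all probes were called in these tests, so counts of 0 of 8 do not set the urea cycle probes apart. In controls, 0 of 8 probes were called between males and females by edgeR or DESeq2 (2.6% of all probes by edgeR). An unadjusted p under 0.05 was given by 0 of 8, against 10.9% of all probes. The log2 differences, males minus females, ran from -0.46 for Asl_77578 to 0.36 for Ass1_30805. The test of whether the effect of 5 mg/kg differed between the sexes called 0 of 8 probes by edgeR (0.63% of all probes) and 1 by DESeq2. All 8 values were below 0, from -0.99 to -0.15, meaning a lower log2 change at 5 mg/kg in males than in females. Of these 8 values 2 had an unadjusted p under 0.05 (10.7% of all probes). The median of this term was -0.42 over the 8 probes and -0.12 over all probes, the latter 0.013 with total counts alone. Without the males under 5000000 counts those of Ass1_80185 and Nags were above 0 (0.11 and 0.067). Otc had the largest difference of effects, -0.99 (95% confidence interval -1.60 to -0.38, unadjusted p = 0.0020, adjusted p = 0.183, edgeR), and was the probe called by DESeq2 (adjusted p = 0.0747). Without male 2 at 5 mg/kg its edgeR adjusted p was 0.0418. For Ass1_30805 the difference was -0.75 (95% confidence interval -1.38 to -0.12, adjusted p = 0.385).

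The 8 probes varied together from mouse to mouse to unequal degrees. Over the 37 mice, after subtracting the mean of each sex, the correlation of log2 CPM between probes of different genes ran from 0.26 to 0.87 (26 pairs, median 0.65), which includes the effect of dose. After subtracting the mean of each group it ran from -0.03 to 0.73 (median 0.43). For Cps1 this second correlation was weak, from -0.03 with Arg1 to 0.33 with Ass1_30805. All pairs share their libraries and scaling, so these are descriptions. For each mouse a mean deviation from its own group was taken over the highest-count probe of each of the 6 genes. It was lowest in male 3 at 5 mg/kg (-0.67 on the log2 scale, 2101495 counts) and male 4 at 0.1 mg/kg (-0.56, 4012015 counts). The highest was female 4 at 5 mg/kg (0.55, 11262409 counts). The other 2 males under 5000000 counts were at -0.21 and 0.15. The part of depth in these levels was not tested beyond leaving those 4 males out and thinning all libraries to the smallest total. Leaving the 4 males out left 2 males at 5 mg/kg and 6 of 8 probes called in males at 5 against 0 mg/kg.

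**Figure D3:**
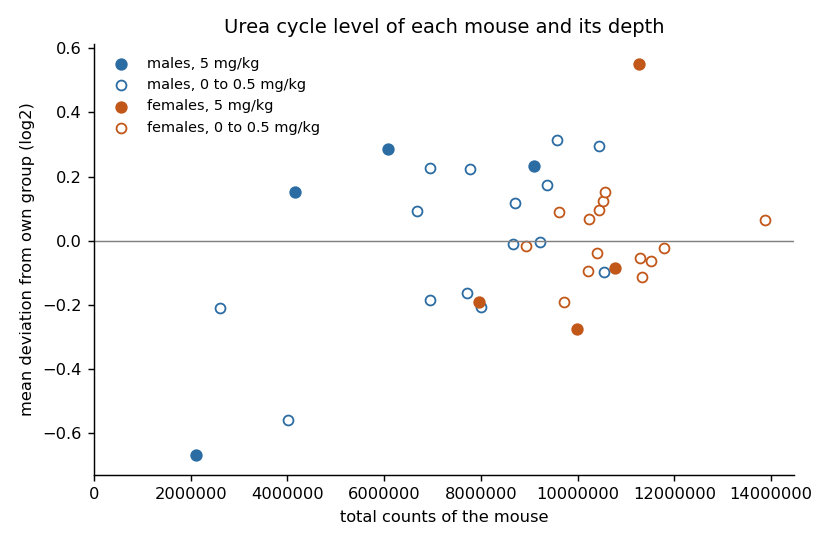
Mean deviation of the urea cycle level from the mean of the mouse's own group (vertical axis, log2 CPM) against its total counts (horizontal axis). The deviation is averaged over 6 probes, the highest-count probe of each gene. Each point is 1 of 37 mice, males blue and females orange, filled at 5 mg/kg. The lowest 2 mice have 2101495 and 4012015 counts, and the highest is a 5 mg/kg female.

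Genes that bring ammonia, aspartate and ornithine to the cycle were lower at 5 mg/kg in part. Of 15 such genes tested, 6 fell and 0 rose in males, and 3 fell and 0 rose in females (median log2 change -0.52 and -0.41), where 8.49% and 2.26% of all probes were called lower. Gls2, the liver glutaminase that frees ammonia from glutamine, fell by 1.50 in males (SE 0.24, adjusted p = 1.67e-05, edgeR) and by 1.50 in females (SE 0.24, adjusted p = 2.76e-05). Glud1, the glutamate dehydrogenase, fell by 0.52 in males and 0.70 in females (adjusted p = 0.0205 and 0.00214). Slc38a3, Slc38a2 and Slc7a2, carriers of glutamine, neutral and cationic amino acids, fell in males by 1.15, 1.72 and 1.46, and were -0.34, -0.64 and -0.47 in females, not called. Slc25a13, the mitochondrial aspartate-glutamate carrier citrin, fell by 0.53 in males (adjusted p = 0.0238) and was -0.30 in females (adjusted p = 0.455). The mitochondrial ornithine carrier Slc25a15, named outside the rule because it serves the cycle itself, fell by 0.74 in females (SE 0.22, adjusted p = 0.0412) and was -0.53 in males (adjusted p = 0.123). Without the 4 males under 5000000 counts, 3 of the 15 were called in males, Glud1, Slc25a13 and Slc38a3 being the losses. The 8 other genes tested were not called in either sex by edgeR. DESeq2 called 6 of the 15 in each sex, in females adding the aminotransferases Got1, Got2 and Gpt. Over all probes DESeq2 called 1696 lower and 1134 higher of 17946 in males. In females it called 640 lower and 624 higher of 10277.

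Of 9 genes that use ornithine and arginine elsewhere, 3 fell and 1 rose in males and 2 fell in females. Of all probes 8.49% were called lower and 4.21% higher in males, and 2.26% lower in females. Prodh, proline dehydrogenase, fell by 1.82 in males and 1.42 in females (adjusted p = 4.84e-06 and 0.000315, edgeR). Oat, the ornithine aminotransferase, fell by 1.61 in males (adjusted p = 0.00306) and was -0.99 in females (adjusted p = 0.155), where DESeq2 called it, as did edgeR without the mice under 5000000 counts (adjusted p = 0.0683). Agmat, agmatinase, fell by 0.79 in males and 0.81 in females (adjusted p = 0.0655 and 0.0940), and the male call was lost without those under 5000000 counts (adjusted p = 0.130). Pycr1, a proline-forming reductase, was the gene called higher in males. Its counts were 0 in all 5 controls and 0, 25, 0 and 24 in the 4 mice at 5 mg/kg, at least 27.7-fold higher when set against a floor of 3 counts over the controls, and it rests on 2 of 4 mice. Of 3 genes of glutamine synthesis and ammonium uptake, Slc1a2, a glutamate transporter of pericentral hepatocytes, fell by 2.86 in males and 1.66 in females (adjusted p = 9.13e-07 and 0.00254), while Glul, glutamine synthetase, was -0.44 and -0.33 (adjusted p = 0.260 and 0.749).

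Of 10 known regulators of the cycle genes, 0 were called at 5 mg/kg in either sex by edgeR. An unadjusted p under 0.05 was given by 3 in males and 1 in females, against 23.3% and 12.3% of all probes. DESeq2 called 0 in males and 1, Cebpb, in females. Of all probes 12.7% were called in either direction in males and 4.52% in females, so a count of 0 among 10 does not set the regulators apart. Hnf4a was -0.35 in males and -0.21 in females, Cebpa -0.56 and -0.46, and Nr3c1, the glucocorticoid receptor, -0.19 and -0.07. Cebpb was -0.67 in males and 0.74 in females, neither called (adjusted p = 0.111 and 0.134), with a difference between the sexes that was called (-1.41, SE 0.37, adjusted p = 0.0862). Without the males under 5000000 counts that difference was -1.04 (adjusted p = 0.293), and Cebpb was called higher in females (0.72, adjusted p = 0.0850). Ppargc1a was then called lower in males (-2.04, adjusted p = 0.0959), in a fit with 2 males left at 5 mg/kg. With all males it was -0.56 (SE 0.67, adjusted p = 0.703, edgeR). Its male means were low, 5.65 CPM at 5 mg/kg and 7.84 CPM in controls. The regulators named here were picked out after their values were seen.

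**Figure D4:**
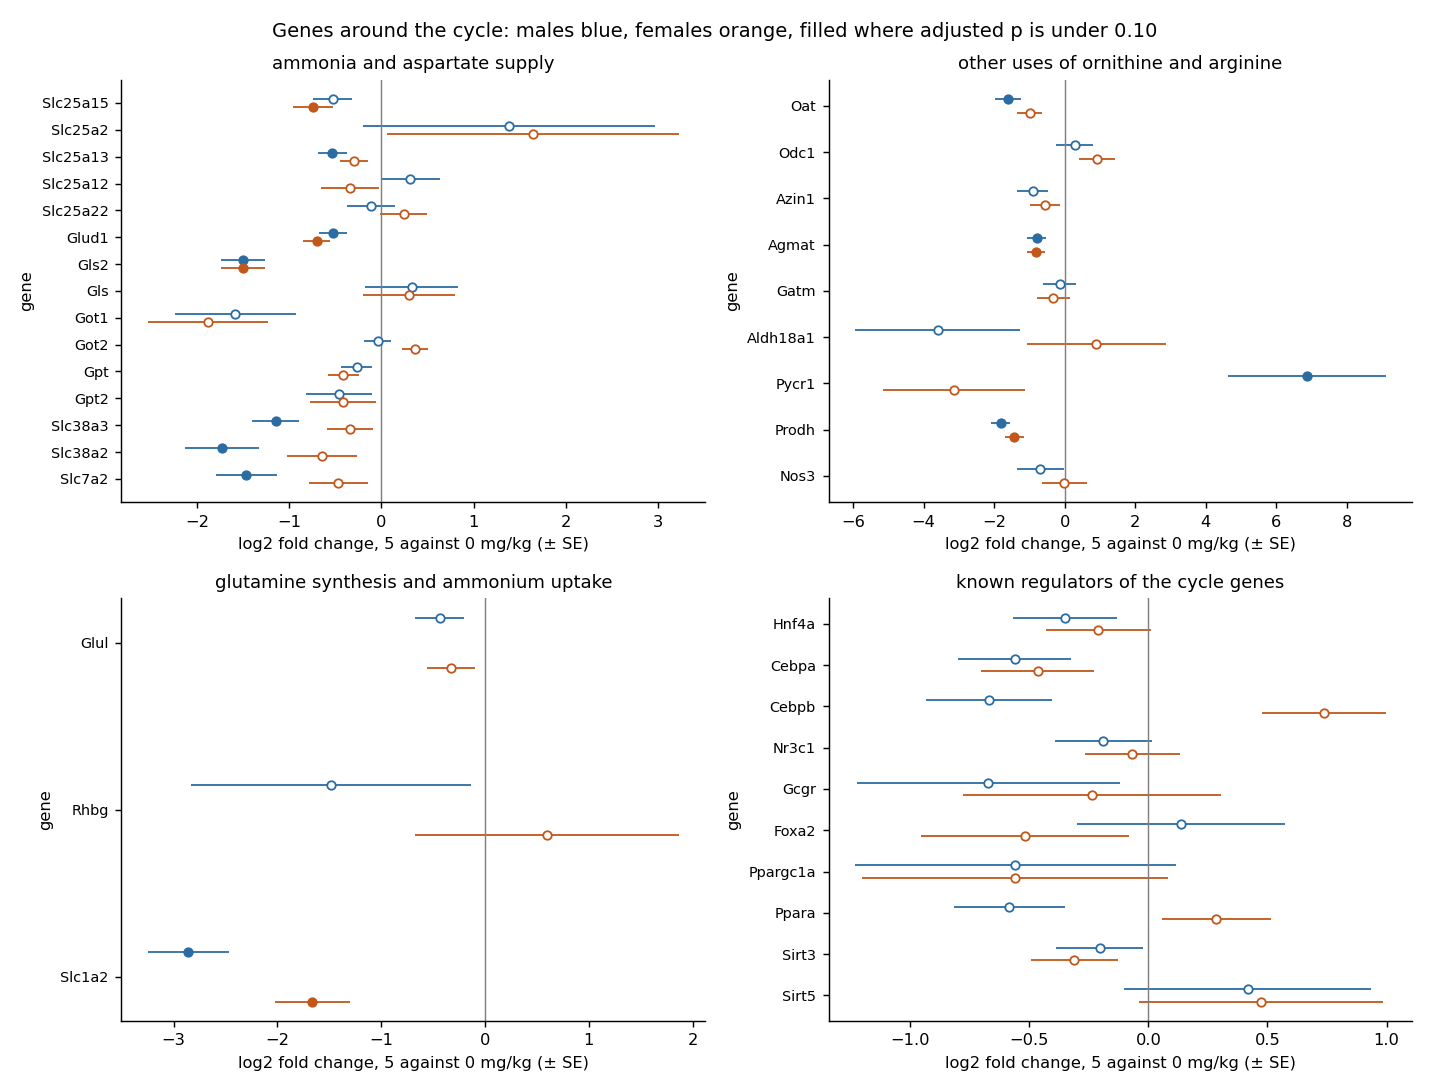
Log2 fold change at 5 against 0 mg/kg (horizontal axis, bars are standard errors) of genes that feed the cycle, use its intermediates, handle glutamine and ammonium, or are known to regulate it. Males are blue and females orange, filled where the adjusted p is under 0.10. Filled points are left of 0 except Pycr1 in males, and the regulator panel has none.

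Some markers of where hepatocytes sit in the lobule were also lower at 5 mg/kg. Of 7 periportal markers 5 fell in males and 3 in females, and of 8 pericentral markers 4 fell in males and 3 in females, beside 8.49% and 2.26% of all probes. Gls2 among the periportal markers, and Oat, Slc1a2, Glul and Rhbg among the pericentral ones, are also in the lists above. Hal, the periportal histidine ammonia-lyase, fell by 1.69 and 1.30 (adjusted p = 8.85e-07 and 0.000120, edgeR), and Cyp1a2, a pericentral cytochrome P450, by 1.62 in males (adjusted p = 1.06e-07). The summed level of the periportal markers was 1691 to 2020.3 CPM in control males and 739 to 972 CPM at 5 mg/kg, and 2442 to 3167 against 1163 to 1857 CPM in females. The pericentral markers summed to 4805 to 9982 CPM in control males and 1718 to 4257 CPM at 5 mg/kg, and overlapped in females (5031 to 6433 against 2541 to 5478 CPM). Most of the male sums came from Cyp2e1, which averaged 5501 CPM in control males and 2300 CPM at 5 mg/kg. General hepatocyte markers summed to 12611 to 19287 CPM in control males and 10937 to 12778 CPM at 5 mg/kg, and to 18124 to 24530 against 14282 to 18953 CPM in females, overlapping in both sexes, with 2 of 4 markers called lower in each. Markers of Kupffer cells (6), stellate cells (5), cholangiocytes (3) and lymphocytes (4) had 0 called in either sex by edgeR, and 1 of them, Lrat of the stellate cells in males, had an unadjusted p under 0.05 and was called by DESeq2. Of 5 endothelial markers 1, Oit3, fell in males, and 0 were called in females (2 at an unadjusted p under 0.05, 1 by DESeq2). Stellate cell markers summed to 137 to 236 CPM in control males and 212 to 301 CPM at 5 mg/kg, and to 134 to 536 against 145 to 453 CPM in females. In bulk liver, fewer cells of a type and less RNA per cell cannot be told apart, and the part of cell makeup in the urea cycle values was not tested.

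Among all other genes, the 5 whose level tracked the urea cycle most closely were Gnmt (r = 0.93), Cdo1 (0.92), Sdc4 (0.92), Sephs2 (0.92) and Sult1a1 (0.91), by Pearson's r over the 37 mice with the mean of the cycle's 6 genes after subtracting sex means. Gnmt, glycine N-methyltransferase, fell at 5 mg/kg by 1.65 in males and 1.08 in females on the log2 scale. Sult1a1, a phenol sulfotransferase, fell by 2.98 and 1.02. Each of these genes shares its libraries with the cycle genes, and the correlation includes the dose effect.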

How the data were processed

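Per the labels and the study's methods, the authors scraped fixed liver sections, ran TempO-Seq on a HiSeq 2500, and deposited raw read counts per probe after removing 3 of 40 mice for low depth or few probes. The processing notes name bcl2fastq 2.17.1.14 and Bowtie. From these counts, probes were kept by edgeR's filterByExpr with the 8 groups, scaled by TMM and fitted in 1 quasi-likelihood model of all 37 mice (edgeR 4.0.16, R 4.3.3), and each dose was tested against the control of its sex. Standard errors are the fold change over the root of F. Alternatives included DESeq2 1.42.0, other scalings and filters, summed probes, thinned counts and mice left out, and the scripts were tested on simulated data. In those simulated data, at these group sizes, DESeq2 made more false calls than its nominal rate and edgeR did not. The simulated counts were a single draw that used the spreads estimated by edgeR. They therefore cannot show which tool did better on the real counts. Calls made by DESeq2 alone were not made by the main test and carry that limit. The genes and lists were chosen with earlier results of these data known. Named list genes are those called at 5 mg/kg in either sex, at most 6 a list by adjusted p. Slc25a15, Glul, the regulators, and the genes named for a call by DESeq2 or without the shallow mice were named outside this rule, after their values were seen. The labels give no replicate numbers, so mice are numbered by order of deposit. No 2 libraries were identical.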

Additional observations from a re-analysis of the deposited data

Results flagged for a closer look

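Of 64 groups of a probe, 2 held a mouse far from the others by Dixon's test, which flags about 1 group in 20 by chance. Ass1_80185 was at 1430.0 CPM in female 4 at 5 mg/kg, against 709 to 805 CPM in the other 3, and this female was the highest of its group for every urea cycle probe. Asl_64644 was at 6.38 CPM in male 3 at 5 mg/kg, against 25.2 to 27.7 CPM in the other 3, in the library with the fewest counts (2101495). The effect of 5 mg/kg on Cebpb, a known regulator of the cycle genes, differed between the sexes by -1.41 on the log2 scale, males minus females (SE 0.37, adjusted p = 0.0862, edgeR), and by -1.04 (adjusted p = 0.293) without the males under 5000000 counts.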

How the results depend on the processing

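The males' count at 5 mg/kg (7 of 8) stayed between 5, with the probes of a gene summed into 6 genes, and 8 over 11 alternatives, and between 6 and 8 with single mice left out. The females' count (5 of 8 probes) was 6 with each sex fitted apart, Nags being added. That fit called 1152 of 17038 probes lower, against 420 of 18570 in the main fit. With probes summed it was 3 of 6 genes, and the 5 probes of the main fit also belong to 3 genes. With single mice left out it was 3 to 5, the 3 without female 2 or 3 at 5 mg/kg. The least settled count was 5 against 0.5 mg/kg in females (1). It was 2 with DESeq2 size factors, total counts, no filter, the robust fit or only probes averaging at least 10 counts. With probes summed it was 2 of 6 genes, and with thinned counts 3. It was 5 without the mice under 5000000 counts, 6 with each sex fitted apart and 6 by DESeq2. At a threshold of 0.05 it was 0, and with single mice left out 0 to 6. The calls over all probes in this comparison moved as well. The main fit called 156 of 18570 lower, or 115 at a threshold of 0.05. It was 234 of 20794 without the mice under 5000000 counts, 440 of 17038 with each sex fitted apart and 278 of 6987 by DESeq2. The sex by dose count (0) was 1 by DESeq2 and 0 to 1 with single mice left out. Over all probes DESeq2 called 180 of 16311 lower in that test, against 86 of 18570 by edgeR. For Nags in males at 5 mg/kg the adjusted p passed the threshold with the stricter filter (0.0925) and the robust fit (0.0900). Under the other alternatives it was as high as 0.313. Another sign appeared under some alternative in 22 of 80 log2 differences, none called and none over 0.85 of its standard error, with the log2 difference that follows. With total counts it was Arg1 -0.11 for control males against females and Asl_64644 0.040, Asl_77578 0.043, Nags 0.0048 for females at 0.1 mg/kg and Asl_64644 0.015, Otc 0.018 for females at 0.5 mg/kg and Nags -0.015 for males at 0.1 mg/kg and Nags 0.020 for males at 0.5 mg/kg. With the mice under 5000000 counts left out it was Arg1 0.054, Otc 0.11 for males at 0.1 mg/kg and Asl_64644 0.063, Asl_77578 0.032 for males at 0.5 mg/kg and Ass1_80185 0.11, Nags 0.067 for the sex by dose term. With probes summed it was Asl_64644 3.9e-05, Asl_77578 3.9e-05 for females at 0.1 mg/kg and Ass1_80185 0.10 for control males against females and Nags 0.00052 for males at 0.5 mg/kg. With thinned counts it was Asl_64644 0.047, Otc 0.0035 for females at 0.5 mg/kg and Nags -0.044 for males at 0.1 mg/kg and Nags 0.14 for males at 0.5 mg/kg and Nags 0.0068 for the sex by dose term. With no filter it was Asl_77578 0.00064 for females at 0.1 mg/kg. With DESeq2 size factors it was Nags 0.035 for males at 0.5 mg/kg. With the stricter filter it was Nags 0.0093 for males at 0.5 mg/kg. With DESeq2 it was Nags 0.033 for males at 0.5 mg/kg. With single mice left out the ranges for control males against females were Arg1 -0.050 to 0.12, Cps1 -0.35 to 0.074. Those for males at 0.1 mg/kg were Arg1 -0.18 to 0.048, Asl_64644 -0.28 to 0.12, Asl_77578 -0.15 to 0.10, Cps1 -0.51 to 0.053, Nags -0.070 to 0.20, Otc -0.12 to 0.11. Those for females at 0.1 mg/kg were Asl_64644 -0.11 to 0.091, Asl_77578 -0.081 to 0.044, Nags -0.16 to 0.045, Otc -0.10 to 0.00039. Those for females at 0.5 mg/kg were Asl_64644 -0.20 to 0.095, Otc -0.089 to 0.024. Those for males at 0.5 mg/kg were Asl_64644 -0.41 to 0.068, Asl_77578 -0.33 to 0.032, Cps1 -0.41 to 0.11, Nags -0.11 to 0.17. Those for the sex by dose term were Asl_77578 -0.61 to 0.046, Ass1_80185 -0.48 to 0.046, Nags -0.42 to 0.12. Of the 80 single-probe values, 3 lost a call and 8 gained one under some alternative, and 6 and 8 with some mouse left out, all in their first direction. Fewer mice or probes enter several of these fits, and beyond that the cause was not tested. Adjusted p-values rest on 4 or 5 mice a group, and counts down to 17 limit the weaker probes. No paired analysis was possible because the labels carry no replicate numbers. The checks of the gene lists without shallow males were added after seeing the data.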
